A study of Mus musculus with 4 samples.

Results

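A group of 10 genes of macrophages and dendritic cells was followed as a minor component of RNA from sorted thymocytes. They were listed by name as complement C1q, MHC class II and phagocyte genes and matched by symbol in the gene table: 10 of 35275 genes, of which 9 reached 2 CPM (counts scaled to library depth) in at least 1 library and were tested. C1qa, C1qb and C1qc encode the chains of C1q, Lyz2, Cst3 and Itgax are phagocyte genes, and Cd74, H2-Aa, H2-Ab1 and H2-Eb1 belong to the class II pathway. Itgax, with 2 to 10 counts per library, was the member under the filter.

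The libraries came from thymus of C57BL/6 mice aged 6-8 wk, untreated, sorted on TCRβ and CD69. Group 2 was TCRβintCD69hi and group 3 TCRβhiCD69hi, in mice labelled wild type (Uba3F/F, WT) or Uba3-/- (Uba3ΔT, KO). Uba3 encodes a subunit of the enzyme that activates NEDD8. The design holds 1 library in each of the 4 combinations, the Cre line and any pooling of mice are not given in the sources used here, and the cell type field contradicts the titles, which were followed. Library totals were 10299863 counts (WT group 2), 8043077 (WT group 3), 8964120 (KO group 2) and 9689339 (KO group 3). Uba3 itself was higher in the libraries labelled KO, at 73.3 against 43.2 CPM in group 2 and 89.9 against 43.7 CPM in group 3, and over both groups it rose by 0.90 (log2, SE 0.17; edgeR adjusted p 2.65e-05). Gene-level counts do not show whether particular exons are lost, and KO below means the library labelled KO. With 1 library per group, 95% intervals of ratios cover counting error only.

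C1q is the recognition molecule of the classical complement pathway. It is assembled from A, B and C chains whose genes lie side by side, and tissue macrophages are its main source. In the thymus, macrophages clear thymocytes that die during selection, and they can stay attached to them during preparation. MHC class II molecules are pairs of an alpha and a beta chain that carry peptides to CD4 T cells. The invariant chain, encoded by Cd74, occupies and escorts them until a peptide is loaded. Dendritic cells, B cells, macrophages and thymic epithelium carry class II, whereas mouse T cells largely do not, so several cell types could contribute these transcripts to a thymocyte sort.

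All 10 transcripts were detected in every library. The members together took 0.0483% of the counts of WT group 2, 0.0525% of WT group 3, 0.0686% of KO group 2 and 0.0594% of KO group 3. On the deposited RPKM scale, which divides by gene length, the most abundant member in each library was Cst3 (207 to 274 RPKM over the 4 libraries), followed by Cd74 (98.0 to 174) and H2-Ab1 (76.2 to 117). H2-Aa lay at 38.6 to 73.7 RPKM and was above H2-Eb1 (27.5 to 44.8) in each library. Lyz2 stood at 25.7 to 42.1 RPKM, the 3 C1q chains at 3.11 to 14.2 and Itgax at 0.0615 to 0.255. For scale, Cd3e, a chain of the T cell receptor complex, stood at 765 to 929 RPKM and Zap70, a kinase downstream of it, at 114 to 139, under Cst3 in each library. In bulk RNA, fewer cells of a type and less RNA per cell cannot be told apart.

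**Figure D1:**
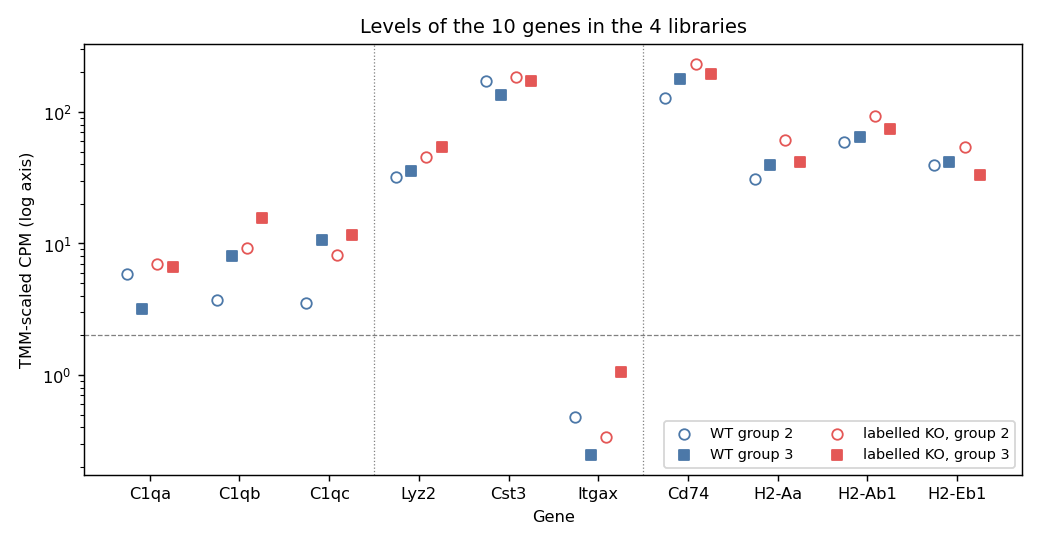
TMM-scaled CPM (log axis) of each of the 10 genes in the 4 libraries, 1 point per library, with the filter of 2 CPM as a dashed line and dotted lines between the C1q, phagocyte and class II genes. KO group 2 is the highest library for each class II gene, KO group 3 for C1qb, C1qc and Lyz2, and Itgax lies under the filter throughout.

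The C1q genes occupy neighbouring positions on the minus strand of chromosome 4 (mm10, GENCODE M21): C1qb at 136880129 to 136886187, C1qc at 136889804 to 136893065 and C1qa at 136895917 to 136898803. Lyz2 lies on chromosome 10 (117277331 to 117282321), Cst3 on chromosome 2 (148871722 to 148875692) and Itgax on chromosome 7 (128129547 to 128150657). H2-Ab1 (34257689 to 34269419), H2-Aa (34282744 to 34287823) and H2-Eb1 (34305867 to 34316674) lie together on chromosome 17, while Cd74 is on chromosome 18 (60803848 to 60812652). The sole overlapping gene with an entry in the count table was Gm20513, antisense to H2-Eb1, with 1 count in KO group 2 and 0 elsewhere. Lyz2 has a close relative, Lyz1, listed at 0 to 5 counts, and the class II beta genes resemble each other, so reads of these families are less certain.

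The first question was how the genotype labels separate the members within each sorted group. In group 2, 8 of the 9 measured members were higher in KO with an interval excluding 1 (27.3% of all 12490 measured genes were) and none was lower (25.8% were). C1qb and C1qc exceeded 2-fold, 2 of 9 members, where 6.45% of all genes did. The median log2 fold of the members was 0.66, against 0.00 for all measured genes. In group 3, 6 of 9 were higher with an interval excluding 1 (24.5% of all genes), H2-Eb1 was lower (23.7%), and none passed 2-fold (2.17% higher and 5.6% lower among all genes). Past 1.5-fold were 5 higher and 0 lower in group 2 (11.8% and 8.05% of all genes) and 3 higher and 0 lower in group 3 (6.39% and 10.6%). The median log2 fold of the members in group 3 was 0.20, against -0.01 for all genes. Member log2 folds ran from 0.10 to 1.20 in group 2 and from -0.33 to 0.95 in group 3. The members were chosen with earlier results of these data known, and all are read from the same libraries. The shares of all genes, here and below, are therefore a scale and not a test of the members.

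C1qb, the B chain of C1q, had 39 counts in WT group 2, 66 in WT group 3, 81 in KO group 2 and 150 in KO group 3. These are 3.72, 8.09, 9.17 and 15.8 CPM, so both KO libraries lie above both WT libraries, with WT group 3 just under KO group 2. KO was 2.47-fold WT in group 2 (1.67 to 3.72) and 1.95-fold in group 3 (1.45 to 2.64). Over both sorted groups C1qb rose by 1.12 on the log2 scale (SE 0.34; edgeR quasi-likelihood with Benjamini-Hochberg adjustment, adjusted p 0.0252). The rise did not pass with DESeq2 (adjusted p 0.553) or limma-voom (adjusted p 0.113). Nor did it pass in edgeR with its own filter (edgeR adjusted p 0.0728), no filter (0.0630), a 10 CPM filter (0.0762) or genotype alone (0.490). The log2 effect was 0.62 without WT group 2 and 1.75 without WT group 3. It was 1.43 without KO group 2 and 0.65 without KO group 3. Over all alternatives the adjusted p ran from 0.0295 to 1.0.

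C1qc, the C chain, had 37 counts in WT group 2, 87 in WT group 3, 72 in KO group 2 and 110 in KO group 3. The low library was WT group 2 at 3.52 CPM, and the other three lay at 8.16 to 11.6 CPM. KO was 2.31-fold WT in group 2 (1.54 to 3.54), but 1.08-fold in group 3 (0.810 to 1.45), an interval that holds 1. C1qa, the A chain, had 62, 26, 62 and 63 counts in the same order, and WT group 3 alone was low, at 3.19 CPM against 5.91 to 7.02 CPM. Its KO to WT ratio was 1.19 in group 2 (0.822 to 1.72) and 2.07 in group 3 (1.29 to 3.41). Neither C1qc (log2 0.62, SE 0.35; edgeR adjusted p 0.483) nor C1qa (0.63, SE 0.47; edgeR adjusted p 0.669) passed the test of the shared genotype effect. For C1qc the effect was -0.11 without WT group 2 and 1.48 without WT group 3.

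Summed over the 3 chains, C1q had 138 counts in WT group 2, 179 in WT group 3, 215 in KO group 2 and 323 in KO group 3, or 13.1, 22.0, 24.4 and 33.9 CPM. The sum was 1.85-fold higher in KO in group 2 (1.49 to 2.31) and 1.55-fold higher in group 3 (1.28 to 1.87). Left without C1qa the group 2 ratio was 2.39, and without C1qc the group 3 ratio was 1.98.

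The chains did not keep a fixed proportion between libraries. C1qa made up 44.9% of C1q counts in WT group 2 (Clopper-Pearson 95% interval 36.5 to 53.6), 14.5% in WT group 3 (9.71 to 20.6), 28.8% in KO group 2 (22.9 to 35.4) and 19.5% in KO group 3 (15.3 to 24.3). The WT group 2 interval overlaps none of the other intervals. C1qc made up 48.6% in WT group 3 (41.1 to 56.2) and 26.8% to 34.1% in the other libraries. C1qb went from 28.3% in WT group 2 to 46.4% in KO group 3 (40.9 to 52.0). The gap of WT group 2 to the rest exceeds counting error, but with 138 to 323 counts per library, no replicate and no molecular identifiers recorded, the spread between preparations is unknown.

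**Figure D2:**
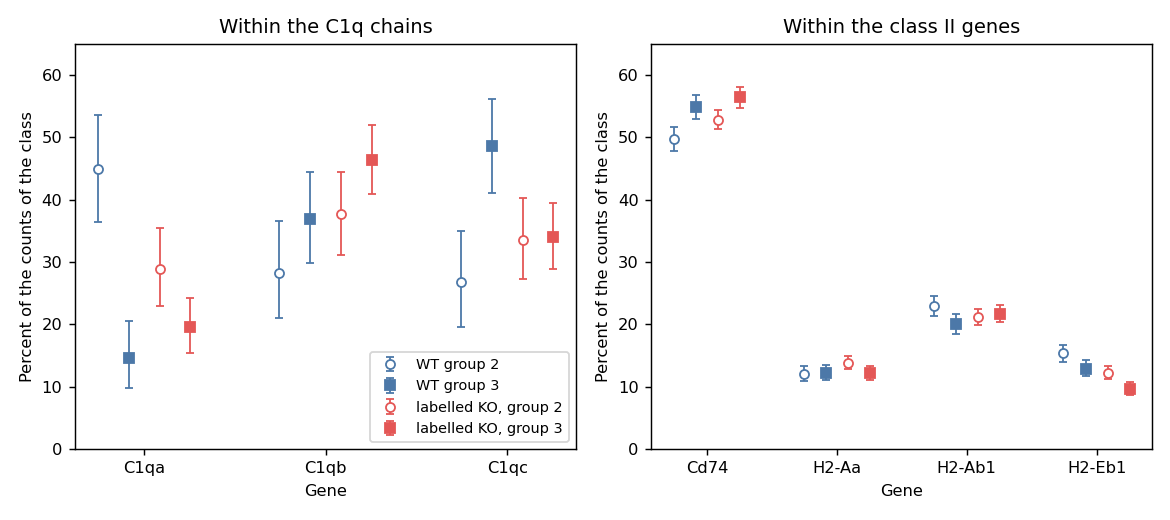
Share of each gene in the counts of its class, in percent, for the 3 C1q chains (left) and the 4 class II genes (right), 1 point per library with its Clopper-Pearson 95% interval. C1qa spans 14.5% to 44.9% of C1q. Of the class II counts, H2-Aa spans 12.1% to 13.8% and H2-Eb1 9.66% to 15.3%. The C1q shares rest on 138 to 323 counts per library and the class II shares on 2646 to 3899.

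The promoter of C1qb is shown because it was the C1q gene called in the genotype test. The line gives the 200 bases before the RefSeq start in GRCm38.p6, on the minus strand at chr4:136886201-136886400. Capitals mark GAGGAA, the core bound by the macrophage factor PU.1.
C1qb: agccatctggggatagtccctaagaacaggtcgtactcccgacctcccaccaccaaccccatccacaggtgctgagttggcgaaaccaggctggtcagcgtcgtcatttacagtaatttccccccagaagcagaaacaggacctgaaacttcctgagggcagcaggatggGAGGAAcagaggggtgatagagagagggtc
C1qb holds GAGGAA 30 to 25 bases before the start and C1qc holds it on the other strand 193 to 188 bases before. Of all 32851 RefSeq promoter windows of 300 bases, 28.3% hold it, as do 3 of the 7 members with a window. Windows of C1qa, H2-Ab1 and Cd74 were not used here.

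Lyz2, which encodes the lysozyme of macrophages, monocytes and neutrophils, had 335 counts in WT group 2, 288 in WT group 3, 401 in KO group 2 and 517 in KO group 3. On the CPM scale these are 31.9, 35.3, 45.4 and 54.3, with both KO libraries above both WT libraries. KO was 1.42-fold WT in group 2 (1.23 to 1.65) and 1.54-fold in group 3 (1.33 to 1.78). The shared genotype effect was 0.56 on the log2 scale (SE 0.19; edgeR adjusted p 0.0642), short of the threshold. It passed when genes under 10 CPM were left out (edgeR adjusted p 0.0463, with 0.0463 to 0.931 over all alternatives).

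Neutrophil granule genes were high in the library where Lyz2 was highest. Ngp, S100a8, S100a9, Ltf, Camp and Lcn2, which were picked from the monocyte and neutrophil list after their values were seen, summed to 14 counts in WT group 2, 11 in WT group 3, 5 in KO group 2 and 446 in KO group 3. Ngp alone had 204 counts in KO group 3 and 2 to 6 elsewhere. In group 2, where these genes were at 14 and 5 counts, Lyz2 was higher in KO by 1.42-fold as given above. Their part in the group 3 value of Lyz2 was not tested. Ly6c2, a monocyte gene of the same list that some T cells share, rose over both sorted groups by 1.07 (SE 0.24; edgeR adjusted p 0.000789), from 16.9 to 39.8 CPM in group 2 and from 7.36 to 13.4 CPM in group 3. Ngp and Ltf also passed the edgeR genotype test, but they reached 2 CPM in KO group 3 alone. Other neutrophil genes of the list, named here after their values were seen, were mixed. Mmp8 had 0 counts in WT group 2, 4 in WT group 3, 18 in KO group 2 and 26 in KO group 3. Mmp9 had 29, 34, 23 and 68 in the same order. Their KO to WT ratios in group 3 were 5.57 (1.93 to 21.9) and 1.71 (1.12 to 2.67). Cxcr2 and Retnlg did not follow. Cxcr2, a chemokine receptor, had 36 counts in WT group 2, 41 in WT group 3, 4 in KO group 2 and 10 in KO group 3, with KO to WT ratios of 0.132 (0.0342 to 0.369) and 0.209 (0.0933 to 0.424). Its shared genotype effect of -2.53 did not pass (SE 0.98; edgeR adjusted p 0.141). Retnlg was at 22, 15, 13 and 10 counts in the same order. For sorted group, Ly6c2 fell in the edgeR test, and Ngp, Ltf and Lcn2, at or near 0 counts outside KO group 3, passed as higher.

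Cst3 encodes cystatin C, a secreted inhibitor of cathepsins that many cell types make and dendritic cells make abundantly. It had 1804 counts in WT group 2, 1106 in WT group 3, 1632 in KO group 2 and 1634 in KO group 3, or 172, 136, 185 and 172 CPM. WT group 3 was low and the other 3 libraries lay close together. The KO to WT ratio was 1.08 in group 2 (1.01 to 1.15) and 1.27 in group 3 (1.17 to 1.37), and the shared effect of 0.22 did not pass (SE 0.15; edgeR adjusted p 0.619).

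Itgax, the CD11c integrin chain that marks dendritic cells, had 5 counts in WT group 2, 2 in WT group 3, 3 in KO group 2 and 10 in KO group 3. Its ratios were 0.713 in group 2 (0.111 to 3.67) and 4.28 in group 3 (0.912 to 40.2), so no difference was detectable at this depth. The beta chain with which CD11c pairs, Itgb2, is shared with T cell integrins and rose from group 2 to group 3 by 0.54 (log2, SE 0.14; edgeR adjusted p 0.004), from 459 to 650 CPM in WT and from 495 to 739 CPM in KO. Itgal, the alpha chain that T cells use, stood at 267 to 307 CPM. The other myeloid alpha chains Itgam and Itgad were at 5.15 to 5.57 and 0.381 to 1.68 CPM.

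The class II genes were highest in KO group 2. Cd74 had 1337 counts in WT group 2, 1453 in WT group 3, 2061 in KO group 2 and 1847 in KO group 3, which are 127, 178, 233 and 194 CPM. Both KO libraries were above both WT libraries, and the gap was wide in group 2 and narrow in group 3. KO was 1.83-fold WT in group 2 (1.71 to 1.96) and 1.09-fold in group 3 (1.02 to 1.17). The shared genotype effect on Cd74 passed as a rise of 0.50 (log2, SE 0.15; edgeR adjusted p 0.0243). The rise did not pass with DESeq2 (adjusted p 0.350), with plain library totals (edgeR adjusted p 0.0561) or with any 1 library left out (edgeR adjusted p 0.0846 to 1.0), and it passed with limma-voom (adjusted p 0.0132). Over all alternatives the adjusted p ran from 0.0131 to 1.0.

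H2-Aa, the alpha chain of the A molecule, had 325, 323, 540 and 399 counts in WT group 2, WT group 3, KO group 2 and KO group 3, or 31.0, 39.6, 61.2 and 41.9 CPM. KO group 2 stood apart, and the group 3 libraries lay close together. The ratio was 1.98 in group 2 (1.72 to 2.27), against 1.06 in group 3 (0.911 to 1.23). H2-Ab1, its beta chain partner, had 616, 529, 823 and 710 counts, with ratios of 1.59 (1.43 to 1.77) and 1.15 (1.03 to 1.29). For both genes the shared genotype effect missed the threshold, at 0.54 for H2-Aa (SE 0.19; edgeR adjusted p 0.0899) and 0.44 for H2-Ab1 (SE 0.17; edgeR adjusted p 0.136).

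H2-Eb1, the beta chain of the E molecule, had 412 counts in WT group 2, 341 in WT group 3, 475 in KO group 2 and 316 in KO group 3, or 39.3, 41.8, 53.8 and 33.2 CPM. KO held both its highest and its lowest library. It was the member whose KO to WT ratio lay above 1 in group 2 (1.37, 1.20 to 1.57) and below 1 in group 3 (0.793, 0.679 to 0.927). Its shared effect was 0.07 (SE 0.19; edgeR adjusted p 0.959), and -0.28 without KO group 2. C57BL/6 mice lack a working alpha chain gene for the E molecule, and H2-Ea-ps was at 4, 4, 3 and 1 counts in the 4 libraries.

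Summed, the class II genes had 256 CPM in WT group 2, 325 in WT group 3, 442 in KO group 2 and 344 in KO group 3. KO was 1.72-fold WT in group 2 (1.64 to 1.81) and 1.06-fold in group 3 (1.01 to 1.11). Their proportions were closer than those of C1q: Cd74 made up 49.7% to 56.4% of class II counts, H2-Ab1 20.0% to 22.9% and H2-Aa 12.1% to 13.8%. H2-Eb1 was 15.3% in WT group 2 (14.0 to 16.7) and 9.66% in KO group 3 (8.67 to 10.7).

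**Figure D3:**
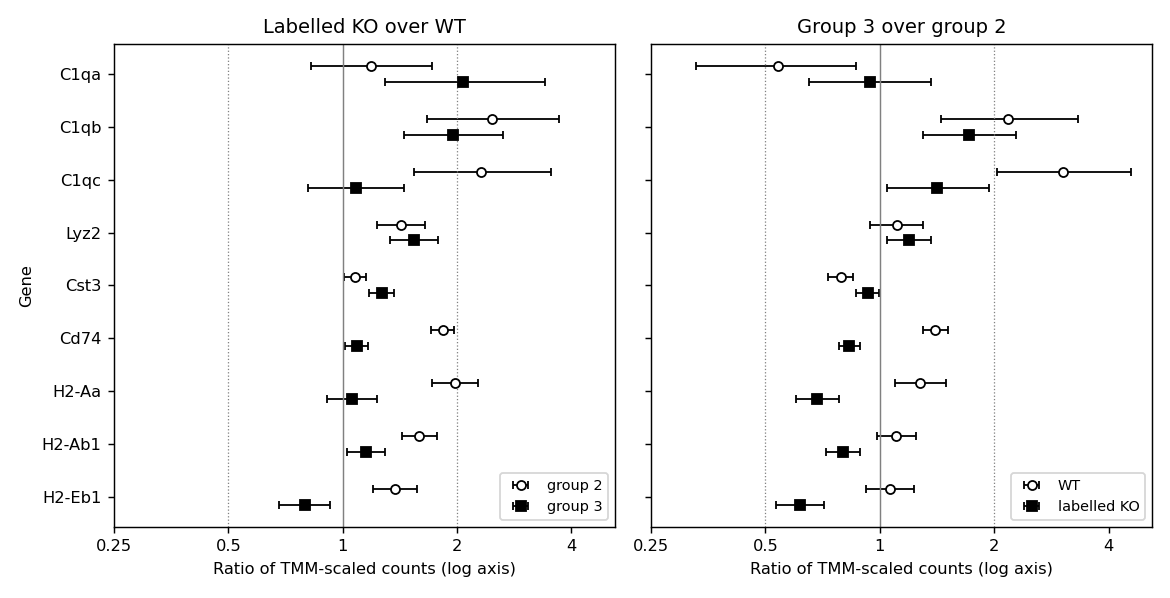
Ratio of TMM-scaled counts (log axis) for the 9 measured members, KO over WT in each sorted group (left) and group 3 over group 2 in each genotype (right), with exact 95% intervals for counting error and dotted lines at 2-fold either way. On the left the class II genes lie further right in group 2 than in group 3, and on the right they lie above 1 in WT and below 1 in the libraries labelled KO.

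The promoters of H2-Aa and H2-Eb1 are shown because the genes lie in 1 cluster, and both reached their highest level in KO group 2. The lines give 200 bases before the RefSeq start in GRCm38.p6, at chr17:34287824-34288023 (minus strand) for H2-Aa and chr17:34305667-34305866 (plus strand) for H2-Eb1. Class II promoters are known for an X box and a Y box. Capitals mark CCAAT, the Y box core, on either strand (ATTGG on the other), an X box pattern with unspecified positions, and TGACGTCA. The last is a cyclic AMP response element, searched for also as a second X box sequence (X2).
H2-Aa: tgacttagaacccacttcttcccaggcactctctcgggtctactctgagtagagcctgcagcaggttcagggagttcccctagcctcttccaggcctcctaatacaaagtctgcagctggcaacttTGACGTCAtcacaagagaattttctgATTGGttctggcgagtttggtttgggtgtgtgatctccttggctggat
H2-Eb1: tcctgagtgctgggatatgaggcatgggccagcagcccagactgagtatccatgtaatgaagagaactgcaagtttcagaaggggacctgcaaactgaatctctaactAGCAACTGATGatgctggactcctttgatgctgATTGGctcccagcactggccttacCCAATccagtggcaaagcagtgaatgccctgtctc
Both hold the Y box core on the other strand, 48 to 44 bases before the start in H2-Aa and 59 to 55 in H2-Eb1, and H2-Eb1 holds a further CCAAT 35 to 31 bases before it. The X box pattern was found in H2-Eb1 (92 to 82 bases before the start) and TGACGTCA in H2-Aa (74 to 67 bases before). The pattern is strict, so an X box that differs from it would be missed. Of all windows, 37.4% hold CCAAT, 0.968% the X box pattern and 1.79% TGACGTCA, on either strand.

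Other genes of the class II pathway were taken from a list. Of 17 listed genes 15 were measured, and none rose or fell with genotype in the edgeR test (2.95% and 1.87% of all genes did). In group 2, 13 of the 15 had a log2 fold above 0, as did 6288 of the 12490 measured genes. H2-Oa, a chain of the class II modulator that B cells and thymic epithelium express, stood at 21.2, 27.8, 40.7 and 33.1 CPM in WT group 2, WT group 3, KO group 2 and KO group 3. Its KO to WT ratio was 1.91 in group 2 (1.61 to 2.27), and its shared effect did not pass (0.59, SE 0.21; edgeR adjusted p 0.0846). H2-Ob of the same list, named after its values were seen, was instead highest in KO group 3. It stood at 18.8, 26.1, 23.9 and 42.7 CPM in the same order. The KO to WT ratios of H2-Ob were 1.27 in group 2 (1.04 to 1.55) and 1.64 in group 3 (1.38 to 1.94). H2-DMa, a chain of the peptide loading catalyst, lay at 48.9 to 56.7 CPM throughout. Ciita, the master activator of class II genes, had 18 to 23 counts in each library, a ratio of 1.31 in group 2 (0.681 to 2.53), and Rfxap, a subunit of the factor that binds the X box, stood at 109 to 128 CPM. Ctss, the protease that degrades the invariant chain in dendritic cells and B cells, rose from group 2 to group 3 by 0.80 (log2, SE 0.18; edgeR adjusted p 0.000664), from 33.6 to 77.3 CPM in WT and from 49.8 to 66.3 CPM in KO.

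The labelled cell types were checked against their defining markers. The macrophage markers Adgre1, Csf1r, Mertk, Timd4 and Vsig4 summed to 75, 49, 69 and 81 counts in WT group 2, WT group 3, KO group 2 and KO group 3, with Vsig4 at 1 count in WT group 2 and 0 in the other libraries. That sum was 1.09-fold WT in KO in group 2 (0.777 to 1.54) and 1.42-fold in group 3 (0.981 to 2.06). Within it the markers diverged in group 3, with Csf1r at 2.40 (1.30 to 4.65) and Mertk at 0.353 (0.124 to 0.895). The intervals of Adgre1 and Timd4 held 1. The dendritic cell markers Xcr1, Clec9a, Flt3 and Zbtb46 summed to 53, 52, 62 and 41 counts, with ratios of 1.39 (0.948 to 2.05) and 0.675 (0.437 to 1.04). In group 3 Xcr1 was at 0.395 (0.182 to 0.811), while the intervals of Clec9a, Flt3 and Zbtb46 held 1. For the macrophage and dendritic sums each KO to WT interval holds 1, whereas those of the summed C1q and class II genes do not. The marker sums hold 41 to 81 counts per library, so their intervals are wide, and other genes of the macrophage list differed, as given below. From group 2 to group 3 the dendritic sum stood at 1.26 in WT (0.845 to 1.89) and 0.613 in KO (0.403 to 0.924). The macrophage sum stood at 0.841 (0.574 to 1.22) and 1.09 (0.780 to 1.52), and the class II sum at 1.27 and 0.778. The differences between these sums were not tested. Of the 20 measured genes of the macrophage list, none rose or fell with genotype in the edgeR test. By the 2-fold rule 6 were higher and none lower in group 2 (6.45% and 2.44% of all genes), and 2 were higher and 4 lower in group 3 (2.17% and 5.6%). Named after their values were seen, those higher in group 2 were Cd68, Fcer1g, Fcgr3, Slc40a1, Spi1 and Spic. In group 3 Csf1r and Spic were higher, and Cd163, Maf, Mertk and Sirpa lower. Spi1 had a ratio of 2.64 in group 2 (1.58 to 4.52) and 0.506 in group 3 (0.299 to 0.840). Apoe, a lipid carrier of that list, stood at 40.4 to 52.0 CPM and Lgals3, the lectin galectin-3, at 10.4 to 13.9 CPM. Cd68 had KO to WT ratios of 2.18 in group 2 (1.60 to 2.99) and 1.48 in group 3 (1.02 to 2.19). For Axl they were 1.22 (0.876 to 1.70) and 1.87 (1.35 to 2.61).

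Markers of B cells, which carry class II, were set beside these values. Ms4a1, Pax5 and Cd79a summed to 129 counts in WT group 2, 97 in WT group 3, 188 in KO group 2 and 166 in KO group 3. The ratio of KO to WT was 1.73 in group 2 (1.38 to 2.19) and 1.47 in group 3 (1.13 to 1.90). The class II sum had 1.72 and 1.06. From group 2 to group 3 the B cell sum stood at 0.968 in WT (0.736 to 1.27) and 0.819 in KO (0.660 to 1.01). Pax5 was at 1 to 4 counts. The B cell list of 13 genes found summed to 793 to 1122 CPM, mostly from Ighm (722 to 1048 CPM). None of its 9 measured genes rose or fell with genotype in the edgeR test. Cd79b, a chain of the B cell receptor complex, had KO to WT ratios of 1.03 (0.905 to 1.17) and 0.933 (0.804 to 1.08). For Ighm the ratio was 0.979 in group 2 (0.952 to 1.01) and 0.775 in group 3 (0.750 to 0.801). Epcam, which T cells also express, was at 219 to 329 counts, and the epithelial factors Foxn1 and Aire at 0 to 6 and 3 to 12 counts. Foxn1 and Aire summed to 18 counts in WT group 2, 11 in WT group 3, 6 in KO group 2 and 3 in KO group 3. Their summed KO to WT ratio was 0.396 in group 2 (0.129 to 1.04) and 0.234 in group 3 (0.0418 to 0.884). The part of these cells in the class II values was not tested.

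**Figure D4:**
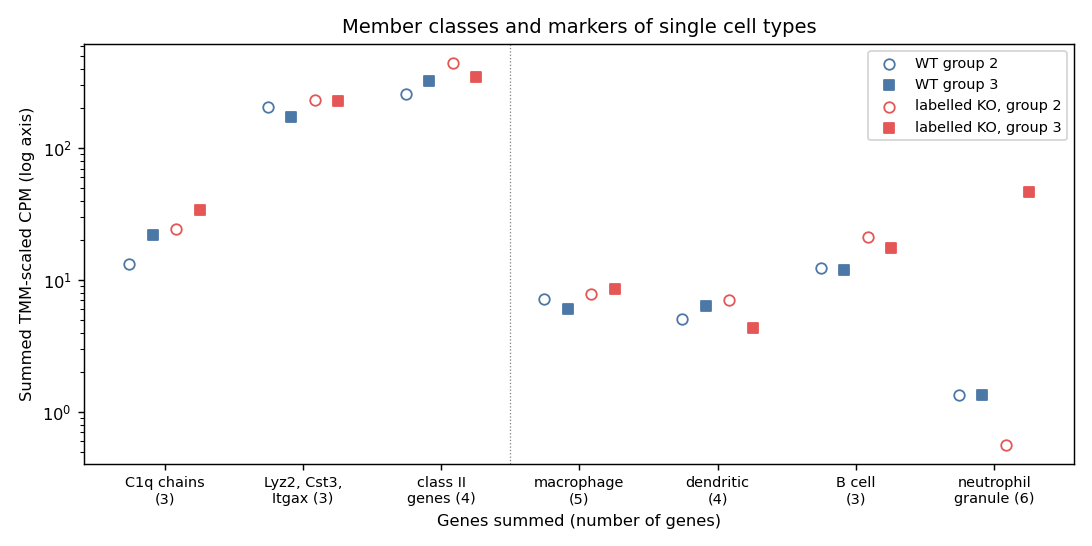
Summed TMM-scaled CPM (log axis) of the 3 member classes (left of the dotted line) and of markers of single cell types (right), 1 point per library. The B cell markers stand at 11.9 to 12.3 CPM in WT and 17.4 to 21.3 in KO, and the macrophage markers at 6.01 to 8.51 CPM. The neutrophil granule genes, picked after their values were seen, stand at 46.8 CPM in KO group 3 and at most 1.35 elsewhere.

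Of the conventional dendritic cell list, 15 of 22 genes were measured and none rose or fell with genotype or sorted group in the edgeR test. Irf8, a transcription factor of these cells, had 107 counts in WT group 2, 208 in WT group 3, 229 in KO group 2 and 209 in KO group 3, with WT group 2 low. Of the plasmacytoid dendritic cell list 11 of 13 were measured, and many of its genes are also expressed by thymocytes. Irf7, an interferon-induced factor, rose with genotype by 0.82 (log2, SE 0.15; edgeR adjusted p 1.29e-05) and was at 58.7, 140, 123 and 210 CPM in WT group 2, WT group 3, KO group 2 and KO group 3. For sorted group Irf7 and Pacsin1 rose and Ly6d fell in the edgeR test. Siglech, a marker of these cells, had 2 counts in WT group 2, 26 in WT group 3, 47 in KO group 2 and 27 in KO group 3. Among thymocyte genes, Cd8b1 and Cd5 fell from group 2 to group 3.

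Lysosomal enzymes are used by phagocytes and also expressed by thymocytes. Of 16 genes, all measured, Ctsh alone rose with genotype (1.43 on the log2 scale, SE 0.35; edgeR adjusted p 0.00304), from 39 to 160 counts in group 2 and from 45 to 77 in group 3. Psap, the saposin precursor, stood at 673 to 780 CPM, Ctsd at 623 to 650 CPM and Ctsb at 392 to 572 CPM. Ctsl, a protease that processes the invariant chain in thymic epithelium, fell from group 2 to group 3 by 0.50 (log2, SE 0.14; edgeR adjusted p 0.0216), from 270 to 218 CPM in WT and from 367 to 228 CPM in KO. In the list of other complement genes 6 of 17 were measured and none rose or fell with genotype. Calr, a chaperone that also serves as a C1q receptor, was its most abundant gene at 278 to 432 CPM, while C1ra and C1s1, the proteases that C1q carries, were at 0 or 1 count in each library.

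Between the sorted groups, group 3 was set against group 2 in WT and in KO separately. In WT 4 of 9 members were higher and 2 lower with an interval excluding 1 (23.8% and 24.1% of all genes), and in KO 3 were higher and 5 lower (24.4% and 24.2%). Past 1.5-fold were 2 higher and 1 lower in WT (10.1% and 6.04%), and 1 higher and 1 lower in KO (5.96% and 10.7%). In WT, C1qb was 2.18-fold higher in group 3 (1.44 to 3.32) and C1qc 3.03-fold (2.04 to 4.58), the 2 members past 2-fold, where 5.22% of all genes were higher and 1.86% lower. C1qa stood at 0.540 of its group 2 level (0.328 to 0.866). In KO, C1qb was 1.72-fold higher (1.30 to 2.28) and C1qc 1.42-fold (1.04 to 1.93), no member passed 2-fold (1.85% higher and 5.99% lower among all genes), and C1qa was at 0.942 (0.653 to 1.36). WT group 2 is the low library for C1qb and C1qc and enters both the genotype ratio in group 2 and the step in WT, so these comparisons share it.

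For the class II genes the level in group 3 relative to group 2 differed in direction by genotype label. Cd74 was at 1.40 of its group 2 level in WT (1.30 to 1.51) and at 0.831 in KO (0.780 to 0.885). H2-Aa was at 1.28 (1.09 to 1.5) and 0.685 (0.600 to 0.781), H2-Ab1 at 1.11 (0.982 to 1.24) and 0.800 (0.722 to 0.885), and H2-Eb1 at 1.07 (0.920 to 1.23) and 0.617 (0.533 to 0.713). All 4 ratios lay above 1 in WT and below 1 in KO, but in WT the intervals of H2-Ab1 and H2-Eb1 hold 1, and 1 library per group leaves the difference without a test. Summed, class II stood at 1.27 in WT (1.20 to 1.34) and at 0.778 in KO (0.743 to 0.815), whereas C1q stood at 1.67 (1.33 to 2.10) and 1.39 (1.17 to 1.66).

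None of the 9 members was called for sorted group over both genotypes by edgeR's quasi-likelihood test, where 2.21% of all genes rose and 1.14% fell. At an unadjusted p under 0.05 the numbers were 2 with edgeR, C1qb and C1qc, 0 with DESeq2 and 2 with limma-voom, where 10.7%, 4.93% and 9.88% of all genes had one. C1qc had a fitted log2 fold of 1.02 (SE 0.35; edgeR adjusted p 0.101) and C1qb of 0.93 (SE 0.34; edgeR adjusted p 0.125). For genotype, 2 of 9 were called (2.95% of all genes rose and 1.87% fell) and 5 had an unadjusted p under 0.05, as did 13.2% of all genes: C1qb, Lyz2, Cd74, H2-Aa and H2-Ab1. With DESeq2 the number was 3 (C1qb, Lyz2 and Cd74), where 6.45% of all genes had such a p, and with limma-voom 5 (11.9%). Because the members were chosen with earlier results known, these shares do not test an excess of calls.

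The make-up of the member counts differed between libraries. C1q took 2.78% of them in WT group 2 (2.34 to 3.27), 4.24% in WT group 3 (3.65 to 4.89), 3.50% in KO group 2 (3.05 to 3.99) and 5.61% in KO group 3 (5.03 to 6.24). Class II took 54.1%, 62.7%, 63.4% and 56.8% in the same order, and Lyz2, Cst3 and Itgax together 43.1%, 33.1%, 33.1% and 37.5%. C1q had its largest share in KO group 3 and class II in KO group 2, though for class II the intervals of WT group 3 (61.2 to 64.1) and KO group 2 (62.2 to 64.6) overlap.

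Among 9960 named genes with at least 100 counts, those nearest to the C1q sum over the 4 libraries were Dusp7, Irgm1, Ier2, Osm and Plekho2. Those nearest to the class II sum were Nutf2-ps1, Tmem151b, Rab43, Pheta1 and Zkscan1. Likeness was the Euclidean distance of mean-centred log2(CPM + 0.5), at most 0.0830 for these genes, and 4 libraries give many close matches among so many genes. Irgm1, an interferon-induced GTPase, had 686, 857, 992 and 1526 counts in WT group 2, WT group 3, KO group 2 and KO group 3, and Dusp7, a phosphatase of ERK, 161, 210, 251 and 367.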

How the data were processed

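RNA of sorted thymocytes was sequenced in 4 libraries, 1 per genotype and sorted group. The authors deposited whole-number counts per Ensembl gene in 1 table and RPKM per library. The submitters' processing notes name TopHat2 2.0.12 and mm10. How reads were assigned to genes, and whether strand was used, is not given in the sources used here. Each deposited RPKM value gave, with its count, a whole gene length within 0.01 bp. The deposited RPKM served to compare levels between genes, and the counts served everything else. Symbols and coordinates came from GENCODE M21 (34490 of 35275 IDs matched) and promoters from RefSeq (GRCm38.p6).

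Counts were scaled with edgeR 4.0.16 (TMM, R 4.3.3), and genes with 2 CPM in at least 1 library (12490) were tested. Ratios of 1 library over another carry an exact conditional binomial 95% interval (Clopper-Pearson). Log2 folds of single pairs used a pseudocount of 0.5 CPM, and a gene was past 2-fold if this fold was at least 2 either way and the interval excluded 1. The shared genotype and sorted group effects were tested with edgeR's quasi-likelihood test (model of both factors, 1 residual degree of freedom, Benjamini-Hochberg over all genes, threshold 0.05). The error term is the part of an effect that differs between the pairs, pooled over genes (common dispersion 0.0288), not variation between mice. Tests and intervals were tested on simulated data. DESeq2 1.42.0 and limma 3.58.1 were alternatives.

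The members and lists were chosen with earlier results of these data known. Named were all members and, from 12 other lists, up to 4 of the most counted genes, genes called by edgeR and set defining markers, plus some genes said to be chosen after their values were seen. C1ra, C1s1 and Zap70 were also chosen so. 1 listed gene had no entry under its symbol, and some listed genes are not reported here and were left out of the list counts.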

Additional observations from a re-analysis of the deposited data

Results flagged for a closer look

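With both intervals excluding 1, H2-Eb1 was higher in the library labelled KO in group 2 (ratio 1.37) and lower in group 3 (0.793). From group 2 to group 3, Cd74 was higher in WT (1.40) and lower in KO (0.831). H2-Aa did the same, with ratios of 1.28 and 0.685. These differences between pairs of libraries were not tested, since each pair holds 1 library a side. H2-Aa and Cd74 share the high library KO group 2.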

How the results depend on the processing

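Of 9 measured members, 2 were called for genotype. The number was 2 with DESeq2 size factors and with robust shrinkage, and 2 with 10 CPM, where Lyz2 took the place of C1qb. It was 1 with plain library totals and with limma-voom, and 0 with edgeR's own filter, with no filter, with only genotype in the model and with DESeq2. Calls among all genes fell as well, from 602 to 596 with plain totals, 500 with limma-voom, 299 with edgeR's filter, 369 with no filter, 23 with only genotype in the model and 179 with DESeq2. With 1 library left out it was 0 to 1, in a model of genotype alone where the lone library of an arm is assumed to vary like the others. The number called for sorted group was 0 under each alternative. In group 2 the number past 2-fold was 0 with a pseudocount of 2 CPM and 5 past 1.5-fold. In group 3 it was 1 without a pseudocount and 3 past 1.5-fold. For the step it was 1 in WT with 2 CPM added and 2 in KO past 1.5-fold.

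Sums depended on single genes. The C1q ratio without C1qa was 2.39 in group 2 and 2.59 for the step in WT, and without C1qc it was 1.98 in group 3 and 1.17 for the step in WT. Without Cst3 the phagocyte sum had ratios of 1.41 in group 2, 1.56 in group 3 and 1.21 for the step in KO, and in WT the step turned from 0.838 to 1.10. Without Cd74 the class II ratio was 1.62 in group 2, and 1.14 and 0.719 for the step in WT and KO. Scaled to thymocyte genes, group 3 ratios were 1.51 for the phagocyte sum and 1.21 for class II, and steps in KO 1.15 and 0.908. No paired analysis was possible because the labels give no replicate numbers and each group holds 1 library; sorted group was a term in the genotype model. At 2 to 10 counts, Itgax is limited by depth.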
